A study of Mus musculus with 2 samples.

Results

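The Olfm4-high stem-like cells outside mitosis were 59 of 11053 kept cells (0.534%, exact 95% binomial interval 0.407 to 0.688) in a single-cell RNA survey of the mouse small intestine at E18.5, late in gestation. The survey held sorted, methanol-fixed epithelial cells of Tet3 knockout embryos and of Control embryos, called wild-type in the protocol, as 1 library each, and each library pooled 2 embryos. The knockout allele lacks exon 5 of Tet3, which encodes a dioxygenase acting on methylated DNA. It was made in embryonic stem cells with transiently expressed Cre, from single clones, so the mice carry it in all tissues, and the line was backcrossed to C57BL6/JRccHsd and is labelled strain C57BL6/J. Each level below is the deposited signal, scaled so that a cell sums to 10000 (CP10K), averaged over cells. Barcodes carried 1 of 2 suffixes (set 0 and set 1), and because no label ties a suffix to a genotype, Tet3 knockout and Control could not be compared. The cells therefore count as 1 pooled sample, cells are not replicates, and no test was run: intervals cover counting error only.

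A cell was a member when Olfm4 reached 2 CP10K, the mitotic genes Mki67, Top2a, Ccnb1 and Ube2c summed to less than 2, the enterocyte gene Fabp1 was below 60, and the goblet genes Muc2, Fcgbp, Spink4, Clca1 and Zg16 summed to less than 10. The cells were chosen by the measured values of these 11 genes, so those values are a description, and so is each ratio below that sets the members against other cells of the same table. At the Olfm4 limit, 8 members lay between 2 and 2.5 CP10K, the lowest at 2.06, and 8 otherwise eligible cells lay within 0.5 below it, the highest at 1.94. At the limit on the mitotic sum, 13 cells lay within 0.5 above and 10 within 0.5 below. Of the members, 45 came from set 0 and 14 from set 1. The sets shared 818 barcodes, and the set 1 row of each was dropped. Their recovered transcript molecules (unique molecular identifiers, UMIs) had a median of 17339 per cell, with a range of 8657 to 90002, against 23091 in all other kept cells.

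Stem cells of the small intestine sit at the base of the crypts, and before birth their forerunners divide between the villi. Wnt signals keep them dividing, while Notch signals between neighbours hold them back from the secretory fates. Olfm4, a secreted glycoprotein, is abundant in these cells in the mouse. Lgr5, a receptor for R-spondins, the transcription factor Ascl2 and the matrix-associated protein Smoc2 are further markers, and Slc12a2 is the sodium, potassium and chloride cotransporter of crypt cells.

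In the GENCODE annotation of the mouse build GRCm38, Olfm4 (ENSMUSG00000022026) lies at chr14:79984081-80023139 on the plus strand, Ascl2 (ENSMUSG00000009248) at chr7:142966829-142969264 on the minus strand, Smoc2 (ENSMUSG00000023886) at chr17:14279506-14404790 on the plus strand and Lgr5 (ENSMUSG00000020140) at chr10:115450311-115587780 on the minus strand. The 250 bases before the RefSeq start (build GRCm38.p6) are shown for Olfm4, which defines the cells, and Ascl2, a transcription factor that marks the same cells. Of these 4 genes, 2 had an entry. They cover chr14:80000052-80000301 (plus strand) and chr7:142969265-142969514 (minus strand). The RefSeq start of Olfm4 lies inside the gene interval above, which begins further upstream in GENCODE, so the annotations place the start differently. Capitals mark the motif match.
Olfm4: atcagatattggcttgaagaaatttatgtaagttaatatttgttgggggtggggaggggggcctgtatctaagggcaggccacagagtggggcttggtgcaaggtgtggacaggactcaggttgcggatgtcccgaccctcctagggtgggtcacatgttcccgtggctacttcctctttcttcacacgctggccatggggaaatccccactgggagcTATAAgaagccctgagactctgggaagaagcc
Ascl2: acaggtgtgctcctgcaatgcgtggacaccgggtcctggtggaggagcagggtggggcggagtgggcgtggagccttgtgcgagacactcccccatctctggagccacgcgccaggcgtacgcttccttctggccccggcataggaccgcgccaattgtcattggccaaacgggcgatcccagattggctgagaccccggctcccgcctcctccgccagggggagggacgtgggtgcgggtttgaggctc
The motifs searched, on both strands, were TATAA, the core of the TATA box, CTTTGAT, bound by TCF factors of the Wnt pathway, and GTGGGAA, bound by the Notch effector RBPJ. The first was added after the Olfm4 sequence had been read. Olfm4 held 1 match, to TATAA, starting 32 bases before the start, and Ascl2 held none. Of 32851 promoters of the same length, 22.8% held TATAA, 3.21% CTTTGAT and 5.42% GTGGGAA on either strand. A match describes the letters and shows no binding.

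The markers that name the cells, Olfm4, Slc12a2, Ascl2 and Lgr5, were each higher in members than in the other cells. Olfm4 itself averaged 6.64 CP10K in members, with a lowest value of 2.06, a median of 4.82 and a highest of 27.3, and 0.114 CP10K in all other kept cells. Slc12a2 averaged 1.59 CP10K in members (median 1.55, highest 3.81) and 0.125 CP10K in the other cells, and 49 of the 59 members held a transcript. Smoc2 averaged 0.498 CP10K in members and 0.0197 CP10K in the others, Ascl2 0.328 and 0.0226 CP10K, and Lgr5 0.207 and 0.0132 CP10K. Transcripts of the last 3 were seen in 28, 21 and 15 members, so their medians were 0. Summed over recovered UMIs, Lgr5 stood at 0.184 per 10000 (95% Poisson interval 0.112 to 0.278, 21 UMIs) in members. No member had 0 UMIs for Olfm4, by the rule. Of the other 4 markers, Slc12a2, Smoc2, Ascl2 and Lgr5, 6 members showed none, 16 showed 1, 18 showed 2, 15 showed 3 and 4 showed all.

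**Figure D1:**
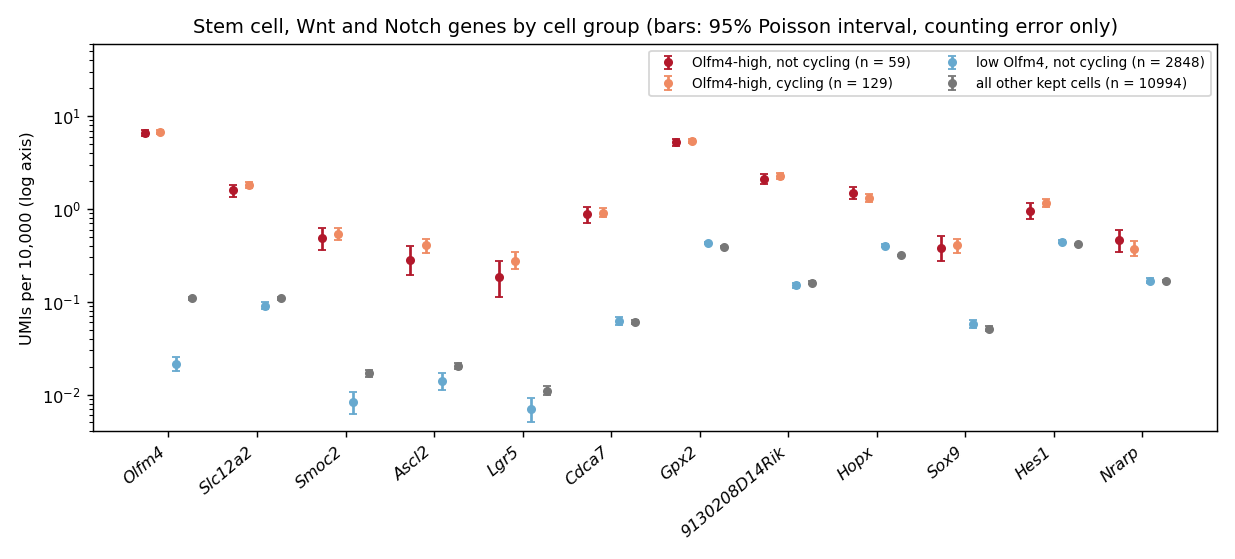
Summed UMIs per 10,000 (log axis) of stem cell, Wnt and Notch genes in members (n = 59), cycling Olfm4-high cells (n = 129), low-Olfm4 cells (n = 2848) and all other kept cells (n = 10994), with 95% Poisson intervals. Groups labelled not cycling lie below the mitotic limit of the rule, which does not exclude cells in S phase. The Olfm4-high groups, below that limit and at or above it, lie close together. Both lie above the other groups for each of the 12 genes shown.

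Each cell was also thinned to 8000 UMIs so that shares of cells with a transcript could be compared at 1 depth. Lgr5 was then seen in 18.6% of members (11 of 59, exact 95% interval 9.69 to 30.9) and in 0.118% of cells with Fabp1 of 60 or more, enterocytes that should lack it. Ascl2 was seen in 15.3% of members and 0.294% of the high-Fabp1 cells, Smoc2 in 30.5% and 0.147%, and Slc12a2 in 64.4% and 1.52%. Median depths before thinning were 17339 UMIs in members and 24757 in the thinned high-Fabp1 cells, so these shares lay far above the level in a cell type that should lack the genes. Without thinning, 25.4% of members held Lgr5.

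Most defining markers of other cell types were at or near 0 in the members. The tuft markers Dclk1, Trpm5 and Avil and the immune markers Cd52, Lyz2 and Tyrobp were at 0 in all 59 cells. They summed to only 0.00201 and 0.00156 CP10K in the others, so a 0 in 59 cells does not set the members apart. The Paneth marker sum was 0.00886 CP10K in members and 0.408 in the others, with Lyz1, Defa24 and Mmp7 at 0. Mesenchymal markers summed to 0.00188 and 0.0577 CP10K and goblet markers to 1.94 and 3.24 CP10K, with Muc2 and Clca1 at 0. The goblet sum was 0 in the median member and 84.3 CP10K in the highest, and averaged 0.519 CP10K without that cell. All goblet markers except Tff3 and Agr2 were limited by the rule, as was Fabp1 of the enterocyte markers. Their low levels were therefore set in part by the choice of cells. Neural markers summed to 0.184 CP10K in members, from 2 cells, and 0.0133 in the others, and endothelial markers to 0.0186, from 1 cell, and 0.00551. The enterocyte sum of 10 markers was 33.2 CP10K in members and 601 CP10K in the others, and it was above 0 in every member, from 14.2 to 203.5 CP10K. Enteroendocrine markers summed to 2.74 CP10K in members and 0.524 in the others, with a transcript in 4 members, and a single cell reached 155.9 CP10K.

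Among 5898 genes with at least 0.2 CP10K in either group, 916 (15.5%) were at least 2-fold higher in members than in all other kept cells and 1144 (19.4%) at least 2-fold lower. With mitochondrial, ribosomal protein and haemoglobin genes left out of each cell's total, the counts were 1435 higher and 1026 lower, and the median of all genes moved to a log2 ratio of 0.28, against 0.04 with the deposited totals. Of the 916 higher genes, 785 stayed 2-fold higher when the member with the highest value of each was left out, and 904 were seen in at least 15 of the 59 members. The 2-fold line is a rule of size and not a test.

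Of the 36 stem cell genes listed, 19 reached the minimum level. Of these, 15 were 2-fold higher in members and 1, Nrn1, was 2-fold lower (0.671 CP10K in members and 1.53 in the others), with a median log2 ratio of 2.34 against 0.04 for all genes tested. The rule used Olfm4, and the list overlaps what these cells were named for. Cdca7, a chromatin remodelling partner and Myc target, averaged 0.92 CP10K in members and 0.0689 in the others. Hopx, a homeodomain protein reported in reserve stem cells, averaged 1.63 and 0.337 CP10K and was seen in 54 members. Prom1 (0.363 and 0.0496 CP10K), Igfbp4 (0.503 and 0.0457), Aqp4 (0.315 and 0.0377) and Cd24a (0.919 and 0.178) were also past 2-fold. Lgr4, the sister receptor of Lgr5, was not, at 0.302 CP10K in members and 0.266 in the others.

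Wnt response genes were higher for 7 of 9 measured members of their list and lower for none, with a median log2 ratio of 1.76. They included the crypt transcription factor Sox9 (0.35 CP10K in members and 0.0611 in the others), the G1 cyclin Ccnd1 (0.637 and 0.131), the receptor-degrading ligase Rnf43 (0.25 and 0.0742) and the guidance receptor Ephb2 (0.236 and 0.0626). Ctnnb1, which encodes beta-catenin, averaged 2.02 CP10K in members and 2.83 in the others. Of the 20 Notch genes, 4 reached the minimum level and 2 were past 2-fold. These were the Notch targets Hes1 (1.05 CP10K in members and 0.428 in the others) and Nrarp (0.456 and 0.172). Atoh1, the secretory fate factor that Hes1 represses, was seen in 0 of 59 members at 8000 UMIs, which allows a share of up to 5.09%, and in 0.412% of the others, so a difference was not detectable with this number of members.

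The genes furthest above the other cells, apart from those of the rule, were not all classical stem cell genes. Slc12a2 led at a log2 ratio of 3.57, followed by Gpx2, the epithelial glutathione peroxidase (5.22 CP10K in members and 0.442 in the others, seen in 58 members). The non-coding transcript 9130208D14Rik came next (2.12 and 0.176 CP10K, 52 members). The helicase subunit Mcm3 (1.04 and 0.0912 CP10K), the phosphatase inhibitor Ppp1r1b (1.75 and 0.21 CP10K, 55 members), the potassium channel subunit Kcne3 (1.04 and 0.139 CP10K, 47 members), the transcription factor Sox4 (1.04 and 0.117 CP10K, 34 members) and Cym, which encodes the stomach-type protease chymosin (4.93 and 0.508 CP10K, 36 members), were also among the 15 highest. Sox4 owed 28.7% of its summed level to 1 cell at 17.6 CP10K. Foxa3, a factor of secretory and endocrine lineages, averaged 0.419 CP10K in members and 0.0446 in the others, and was seen at 8000 UMIs in 27.1% and 2.82% of cells.

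All 30 measured genes of the S phase and replication list were 2-fold higher, with a median log2 ratio of 2.19. The replication licensing factor Cdc6 averaged 0.32 CP10K in members and 0.0208 in the others, and the sliding clamp Pcna 1.64 and 0.567. Ribosome biogenesis genes were higher for 22 of 25, with a median of 1.59. Examples were Nop56 (1.74 CP10K in members and 0.299 in the others) and Gar1 (1.52 and 0.269), which act in small nucleolar ribonucleoproteins. Nucleotide synthesis genes were higher for 19 of 21, led by Ctps, which makes CTP (0.428 and 0.0398), and including Impdh2 of guanine nucleotide synthesis (2.11 and 0.37). Of 78 ribosomal protein genes, 77 were above a ratio of 1, with a median log2 ratio of 0.99, and together they took 2593 CP10K in members and 1345 in the others.

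Of 21 measured chromatin and Myc-related genes, 14 were 2-fold higher and 1, Mxi1, was 2-fold lower. The high-mobility-group proteins Hmgb1 (15.5 CP10K in members and 3.7 in the others) and Hmgn2 (3.07 and 0.656) were among them. Of 10 measured genes of DNA methylation and its removal, 4 were 2-fold higher and none 2-fold lower. Those 4 were Hells (0.915 CP10K in members and 0.108 in the others) and Uhrf1 (0.422 and 0.0611), which help the maintenance methyltransferase, that enzyme itself, Dnmt1 (0.353 and 0.088), and Gadd45b (0.512 and 0.213). The gene deleted in the knockout, Tet3, averaged 0.247 CP10K in members and 0.28 in the others, and was seen at 8000 UMIs in 15.3% of members (interval 7.22 to 27.0) and 19.2% of the others. Reads near the 3' end lie outside exon 5 and do not check the deletion. Dnmt3a, a de novo methyltransferase, averaged 0.451 and 0.281 CP10K, within 2-fold.

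Immediate early genes were 2-fold higher for 8 of 13 and heat shock genes for 7 of 11, with medians of 1.23 and 1.13. Among them were Btg2, which restrains cell division (1.9 CP10K in members and 0.384 in the others), the AP-1 subunit Fosb (1.75 and 0.417) and the chaperone Hsp90ab1 (33.2 and 11.8). The median mitochondrial share, a sign of cell state and RNA quality, was 5.45% in members and 6.8% in the others, and its part in these levels was not tested. The epithelial adhesion molecule Epcam stood at 23.3 CP10K in members and 13.1 in the others, the keratin Krt8 at 21.2 and 9.31 and the tight junction gene Cldn3 at 4.5 and 1.38.

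On the other side, the genes of the absorptive cell were low. All 29 measured genes of the enterocyte list were 2-fold lower in members, with a median log2 ratio of -3.33, although Fabp1 belonged to the rule. Mme, a brush border peptidase, was seen in 1 member, and averaged 0.00453 CP10K in members and 1.47 in the others. The brush border enzymes Ace (0.044 and 1.95 CP10K) and Lct, lactase (0.0855 and 2.67), and the antimicrobial peptide gene Leap2 (0.0331 and 2.64) followed. The most abundant transcripts were lower but present: Apoa4 averaged 3.25 CP10K in members and 90.7 in the others, Apoa1 5.78 and 143.3, and Rbp2, which carries retinol, 4.3 and 113.2, with a transcript in at least 58 of the 59 members for each.

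Fetal growth genes of the imprinted class were low as well, with all 8 measured genes 2-fold lower and a median log2 ratio of -3.38. H19, a non-coding RNA, averaged 2.87 CP10K in members and 31.3 in the others, and its neighbour Igf2, a growth factor, 0.612 and 6.21. The cell cycle inhibitor Cdkn1c averaged 1.85 and 23.6 CP10K, with a median of 0.576 in members. Meg3 averaged 0.0199 and 0.841, in 3 members. Cholesterol synthesis genes were 2-fold lower for 11 of 21, such as Hmgcs1 (0.356 and 1.56 CP10K), and genes of fatty acid oxidation and ketogenesis for 7 of 22. The share over all genes was 19.4%. With mitochondrial, ribosomal protein and haemoglobin genes left out of the totals, these counts were 10 of 23 and 4 of 22, beside 1026 of 6865 genes. The fatty acid count then lay near the share of all genes. Of the enterocyte transcription factors, 8 of 19 were 2-fold lower, among them Creb3l3 (0.23 and 5.31), while Ehf (0.899 and 0.172), Elf3 (3.86 and 1.76) and Id1 (2.1 and 0.814) were 2-fold higher.

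**Figure D2:**
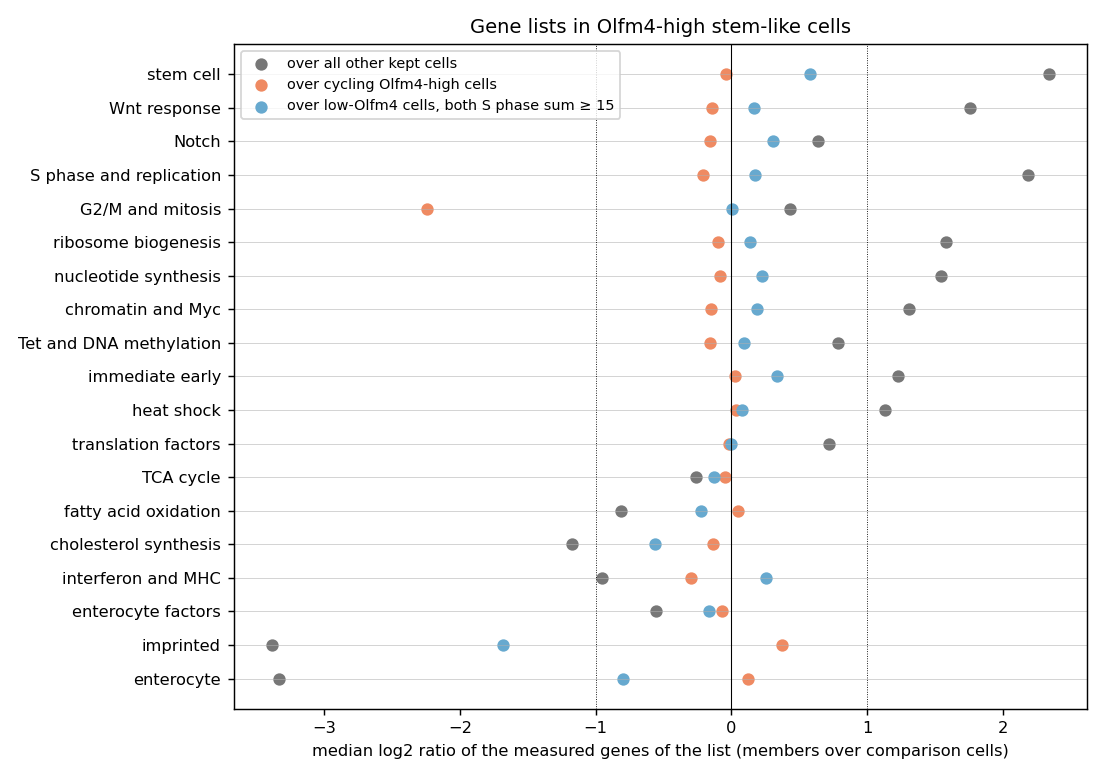
Median log2 ratio of each gene list in members over all other kept cells, over cycling Olfm4-high cells, and, with both sides at an S phase sum of 15 or more, over low-Olfm4 cells. Dotted lines mark 2-fold. Against cycling Olfm4-high cells the G2/M list, which holds the mitotic genes of the rule, lies at -2.25 and no other list shown passes 2-fold. Against all other cells the stem cell list lies at 2.34 and the enterocyte list at -3.33.

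The nearest cells in the series were the 129 that passed each limit except the mitotic one. Of 5423 genes, 39 (0.719%) were 2-fold higher in members than in these cycling cells and 175 (3.23%) 2-fold lower. None of 21 measured stem cell genes passed 2-fold in either direction, and their median log2 ratio was -0.04, against -0.01 for all genes. Lgr5 averaged 0.207 CP10K in members and 0.271 in cycling cells, Ascl2 0.328 and 0.449, Smoc2 0.498 and 0.509, and Slc12a2 1.59 and 1.80. At 8000 UMIs the share with Lgr5 was 18.6% (9.69 to 30.9) in members and 20.9% (14.3 to 29.0) in cycling cells, with overlapping intervals. Ascl2 was seen in 9 of 59 members and 33 of 129 cycling cells, or 15.3% and 25.6%, and Foxa3 in 27.1% and 27.9%.

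What differed were G2/M genes, which the mitotic limit bears on, and histone genes. Of 27 measured genes of the G2/M list, 26 were 2-fold lower in members. The list holds the 4 mitotic genes of the rule, all 4 of them among the 26. The limit on their sum separates the groups, so their lower level was fixed by the choice of cells. How far the other G2/M genes vary with them was not tested. The per-cell sum over 30 G2/M genes had a median of 7.04 CP10K in members and 30.1 in cycling cells. The 5 genes furthest below were replication-dependent histone genes, led by Hist1h2ap (0.988 CP10K in members and 21.3 in cycling cells). A set of all histone genes whose symbols begin with Hist, gathered after this was seen, had 36 of 41 measured genes 2-fold lower and summed to 10.5 CP10K in members and 66.3 in cycling cells. Hist1h2ap and Hist1h2ao share sequence, so their split is uncertain. The per-cell histone sum had a median of 9.03 in members and 68.6 in cycling cells, and reached 30 in 1 of 59 members and 78 of 129 cycling cells.

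Replication genes did not follow the histones. The summed level of the S phase list had a median of 23.1 CP10K in members, from 3.23 to 49.6, and 23.0 in cycling cells, from 4.47 to 61.5, against 3.05 in low-Olfm4 cells and 2.52 in all other kept cells. Of 31 measured S phase genes, 2 were 2-fold lower in members and none 2-fold higher. In all, 22 lay below a ratio of 1 and 9 above. The median log2 ratio was -0.21, against -0.01 for all genes, and the mean sums were 22.8 and 27.2 CP10K. One of the lower genes was Rrm2, a subunit of ribonucleotide reductase (0.236 CP10K in members and 0.786 in cycling cells). Unlike most of the list, Mcm3 (1.04 and 0.736 CP10K), Mcm2 (0.658 and 0.444) and Cdc6 (0.32 and 0.208) were higher in members. Of the members, 44 had an S phase sum of at least 15, and 31 lay above the 95th percentile of all other kept cells, which was 22.3.

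**Figure D3:**
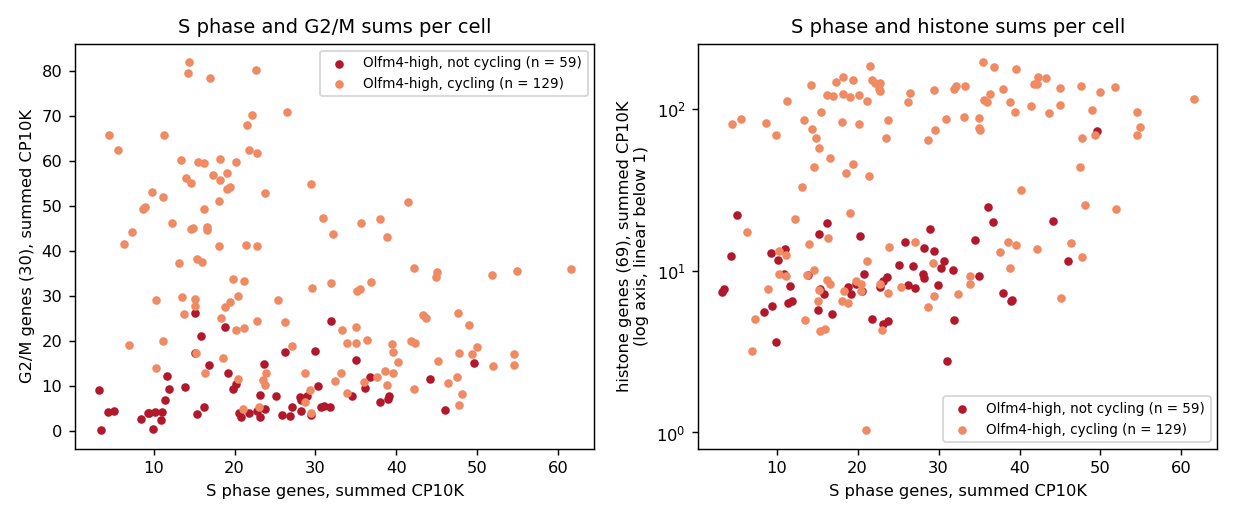
Per-cell summed CP10K of the S phase list (horizontal axes) against the G2/M list (left) and against 69 histone genes (right, log axis, linear below 1) in members and cycling Olfm4-high cells. The groups overlap along the S phase axis (medians 23.1 and 23.0), while histone sums reach 30 in 1 member and in 78 cycling cells.

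Genes higher in members than in cycling cells were few and were often carried by 1 cell. Cck, a gut hormone, averaged 1.47 CP10K from a single member and was at 0 in the cycling cells. Tff3, a goblet peptide (1.63 CP10K in members and 0.217 in cycling cells), and Myl7 (1.19 and 0.155) owed 80.4% and 75.4% of their level to that same cell. This cell, from set 0 and the one of lowest depth (8657 UMIs), held Neurog3, the endocrine fate factor, at 19.6 CP10K, Chgb at 39.3, Cck at 86.6 and Tff3 at 77.4, with no transcript of Slc12a2. A pair of the 5 highest genes, Gm12918 and Rpl17-ps3, are gene models resembling other genes, so how their reads were split among near-identical copies is uncertain. Cym averaged 4.93 CP10K in members and 1.97 in cycling cells.

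Against the 2848 low-Olfm4 cells that met each of the other limits, 642 of 5895 genes (10.9%) were 2-fold higher in members and 1109 (18.8%) 2-fold lower, or 1016 and 1055 with the reduced totals. The low-Olfm4 group is mixed: Gip, the hormone of K cells, was at 0 in all members and averaged 1.89 CP10K in that group, and Afp, a fetal serum protein, averaged 0.492 CP10K in members and 13.2 in that group. A narrower comparison, chosen after this was seen, took cells with an S phase sum of 15 or more on both sides, which left 44 members and 161 low-Olfm4 cells. Of 5420 genes, 70 (1.29%) were then 2-fold higher and 158 (2.92%) 2-fold lower. The S phase list had a median log2 ratio of 0.18 and the G2/M list 0.00, with no gene of either past 2-fold.

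Median S phase sums in this comparison were 26.9 CP10K in members and 23.4 in low-Olfm4 cells, so replication was brought nearer but not equal. The barcode sets entered unevenly, with 31 members of set 0 and 13 of set 1 against 69 and 92 low-Olfm4 cells. Of the 158 lower genes, 76 were also 2-fold lower within set 0 alone and 130 within set 1 alone, and of the 70 higher genes 38 and 49 were 2-fold higher there.

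Most stem cell genes lay above the low-Olfm4 cells here too. Of 19 measured, 17 were above a ratio of 1 and 4 past 2-fold, which were Olfm4, Smoc2, Slc12a2 and Ascl2. The limit on Olfm4 separates the groups, so its call was fixed by the rule. It is also counted among the genes past 2-fold within each set below. Smoc2 averaged 0.505 CP10K in these members and 0.083 in the low-Olfm4 cells, Ascl2 0.31 and 0.143, Slc12a2 1.58 and 0.746, and Lgr5 0.21 and 0.113. Within set 0, 3 stem cell genes were past 2-fold (median log2 ratio 0.37), with Smoc2 at a log2 ratio of 2.63, Slc12a2 at 0.88, Ascl2 at 0.71 and Lgr5 at -0.49. Within set 1, 9 were (median 0.93), with Smoc2 at 2.53, Slc12a2 at 1.23, Ascl2 at 1.37 and Lgr5 at 2.25. Over all genes, 113 of 5415 were 2-fold higher within set 0 and 325 of 5770 within set 1. Calls of any kind were thus more frequent in set 1, which had 13 members here. Gpx2 (4.79 and 2.31 CP10K), 9130208D14Rik (2.3 and 0.856), Sox4 (1.09 and 0.402), Cym (4.02 and 0.84), Fosb (1.87 and 0.847) and Pigr, the receptor that carries immunoglobulins across the epithelium (1.22 and 0.473), were among the highest. Within set 0 Gpx2 and Pigr were under 2-fold, at log2 ratios of 0.81 and 0.88, and within set 1 Sox4 was, at 0.37. Sox9 (0.358 and 0.318), Lgr4 (0.327 and 0.323) and Dnmt1 (0.407 and 0.464) lay close to 1. Ccnd1 and Ccnd2, both G1 cyclins, averaged 0.713 and 2.77 CP10K in members and 1.07 and 3.92 in the low-Olfm4 cells.

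Enterocyte genes were lower in the Olfm4-high side of this comparison, with 6 of 24 past 2-fold, none 2-fold higher and a median log2 ratio of -0.80. That median was -0.50 within set 0, with 4 of 23 past 2-fold, and -0.97 within set 1, with 12 of 25. Over all genes, 179 of 5415 were 2-fold lower within set 0 and 534 of 5770 within set 1. Apoa1 averaged 4.04 CP10K in members and 11.2 in low-Olfm4 cells, and the enterocyte sum over 30 listed genes was 46.4 and 73.9. The imprinted growth genes H19 (2.37 and 7.94 CP10K), Igf2 (0.452 and 1.62) and Cdkn1c (1.1 and 3.56) were 2-fold lower with the sets together and within set 1, but not within set 0. In set 0, H19 averaged 2.36 CP10K in members and 4.01 in low-Olfm4 cells, Igf2 0.387 and 0.636, and Cdkn1c 1.27 and 2.03. In set 1 Cdkn1c averaged 0.686 CP10K in members and 4.70 in low-Olfm4 cells, and the part of the set mix in the pooled values was not tested. Slc51a, a bile acid exporter subunit, averaged 0.439 and 1.88 CP10K. The fetal and regenerative gene Anxa2 averaged 0.827 and 1.72 CP10K.

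The members covered a wide range of the S phase sum. Ordered by the S phase sum, the 19 highest members ran from 28.2 to 49.6 CP10K and the 20 lowest from 3.23 to 16.2. The highest held 11 cells of set 0 and 8 of set 1, and the lowest 19 and 1. The part of this set mix in the values below was not tested. Of 5675 genes, 505 (8.9%) were 2-fold higher in the highest members than in the lowest and 510 (8.99%) 2-fold lower, of which 27 and none belonged to the S phase list that made the order. Nucleotide synthesis genes, some of them shared with that list, were 2-fold higher for 9 of 22. Of 19 measured stem cell genes, 1 was 2-fold higher, Igfbp4 (0.622 CP10K in the highest members and 0.296 in the lowest), and 2 were 2-fold lower, Soat1 (0.206 and 0.713) and Arhgef26 (0.104 and 0.32). Slc12a2 averaged 1.46 CP10K in both, and Ascl2 0.371 CP10K in the highest and 0.366 in the lowest. Olfm4 averaged 6.06 and 7.5 CP10K, and Gpx2 3.91 and 6.51. Enterocyte genes were 2-fold lower in the highest members for 6 of 23, with a median log2 ratio of -0.75, but this rested largely on 1 of the lowest members. Without it 1 of 21 was 2-fold lower and the median was -0.39, and Apoa1 averaged 3.34 CP10K in the highest members and 3.43 in the other lowest ones, against 8.62 with that cell.

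**Figure D4:**
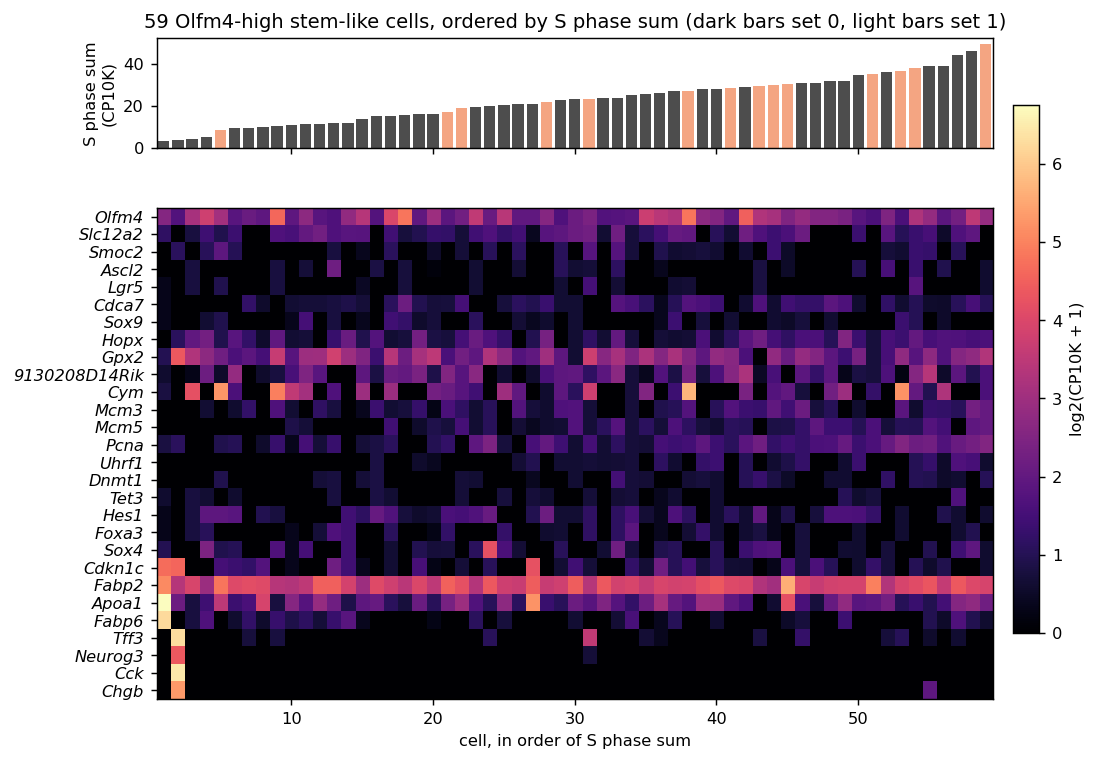
The 59 members in order of their S phase sum (bars above, CP10K, dark for set 0 and light for set 1), with log2(CP10K + 1) of 28 genes below. Olfm4, Slc12a2, Gpx2 and Hopx run across the order, Mcm3, Mcm5 and Uhrf1 fill in to the right, and the second cell alone carries Cck and holds the highest Neurog3 and Chgb.

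Lgr5 was seen more often in the bands of higher Olfm4, whereas the level of Ascl2 did not rank with Olfm4 in members. From low to high Olfm4, Lgr5 was seen in 2 of 25 members at 2 to 4 CP10K, 5 of 19 at 4 to 8, 5 of 11 at 8 to 16 and 3 of 4 at 16 or more. Its level averaged 0.0465, 0.226, 0.432 and 0.507 CP10K in these bands. The cycling Olfm4-high cells, which hold no member, had 18 of 54, 17 of 39, 13 of 27 and 5 of 9 cells with Lgr5, and averages of 0.161, 0.297, 0.342 and 0.608 CP10K. Ascl2 was seen in 8 of 25, 7 of 19, 4 of 11 and 2 of 4 members, and averaged 0.394, 0.261, 0.284 and 0.357 CP10K. In cycling cells Ascl2 averaged 0.519, 0.446, 0.356 and 0.325 CP10K. Slc12a2 averaged 1.35, 1.52, 1.98 and 2.39 CP10K over the bands in members and 1.63, 1.76, 1.77 and 3.06 in cycling cells. Median depth ranged from 15452 to 18460 UMIs over the member bands, and 21 Lgr5 UMIs in all leave the intervals wide, from 0.00543 to 0.162 per 10000 in the lowest band and from 0.194 to 0.805 at 8 to 16.

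Members were not evenly spread over the barcode sets. They made up 0.758% of set 0 (45 of 5933, interval 0.554 to 1.01) and 0.273% of set 1 (14 of 5120, interval 0.150 to 0.458), and the cycling Olfm4-high cells 1.74% of set 0 (103 cells) and 0.508% of set 1 (26 cells). The low-Olfm4 cells with a high S phase sum leaned the other way, with 1.16% of set 0 (69 cells) and 1.80% of set 1 (92 cells). A further count took cells below the mitotic limit with an S phase sum of at least 15. Of these, 31 of 100 in set 0 and 13 of 105 in set 1 reached the Olfm4 limit. Those are 31.0% (interval 22.1 to 41.0) and 12.4% (6.76 to 20.2). Among cycling cells the shares were 16.6% (13.8 to 19.8) of 619 and 4.55% (2.99 to 6.59) of 572. Each set is 1 group of cells, so genotype, embryo, litter and library cannot be told apart.

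**Figure D5:**
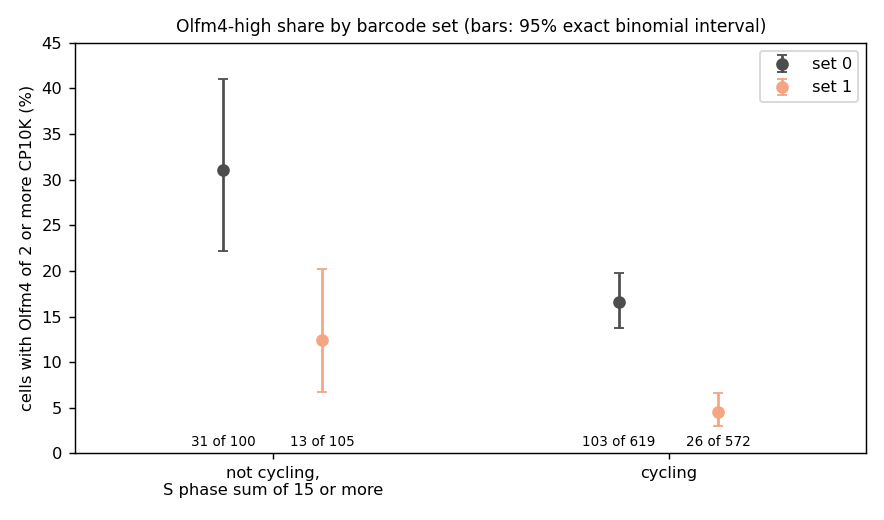
Percentage of cells with Olfm4 of 2 or more CP10K, for set 0 and set 1, with exact 95% binomial intervals and cell numbers. The groups are cells below the mitotic limit (labelled not cycling) with an S phase sum of 15 or more, and cycling cells. Set 0 lies at 31.0% and 16.6%, set 1 at 12.4% and 4.55%.

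In those same pools the intervals of the sets lay apart for some stem cell genes and overlapped for others. Overlap does not show equal levels, and the intervals leave out the spread between cells. In cells below the mitotic limit with a high S phase sum, Olfm4 stood at 2.24 UMIs per 10000 (Poisson interval 2.04 to 2.45) in set 0. It stood at 0.933 (0.801 to 1.08) in set 1. Lgr5 stood at 0.102 (0.063 to 0.156) and 0.131 (0.0848 to 0.194), Smoc2 at 0.179 (0.126 to 0.247) and 0.168 (0.115 to 0.237), and Ascl2 at 0.213 (0.155 to 0.286) and 0.131 (0.0848 to 0.194), with overlapping intervals for each. Slc12a2 stood at 1.04 (0.903 to 1.19) and 0.718 (0.603 to 0.849), Gpx2 at 3.45 (3.20 to 3.72) and 2.26 (2.05 to 2.48), and Cdca7 at 0.917 (0.791 to 1.06) and 0.629 (0.522 to 0.752), and these intervals did not overlap. In the larger pool of cycling cells, Olfm4 stood at 1.29 (1.24 to 1.35) in set 0 and 0.377 (0.346 to 0.411) in set 1, Smoc2 at 0.152 (0.133 to 0.172) and 0.0829 (0.0685 to 0.0994), and Slc12a2 at 0.755 (0.713 to 0.799) and 0.457 (0.423 to 0.494). Lgr5 was 0.0724 (0.06 to 0.0869) and 0.0716 (0.0581 to 0.0869) there, and Ascl2 0.147 (0.129 to 0.167) and 0.122 (0.105 to 0.142). Median depths were 18177 UMIs in set 0 and 17118 in set 1 in the pools below the mitotic limit, and 21257 and 21501 in the cycling pools. Their part in these levels was not tested.

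Within the members, Olfm4 averaged 6.63 CP10K in set 0 (median 4.82) and 6.68 in set 1 (median 4.85), both above a lower end that the limit fixes. Of 5638 genes, 379 (6.72%) were 2-fold higher in set 0 and 362 (6.42%) 2-fold higher in set 1, against 1.29% and 0.643% in the other cells, where the groups are far larger. Cym averaged 3.0 CP10K in the 45 members of set 0 and 11.1 in the 14 of set 1, and 0.304 and 0.744 in the other cells of each set. It was seen in 24 of 45 and 12 of 14 members, and its highest values were 29.8 and 51.7 CP10K, so the sets overlap. Lgr5 averaged 0.112 CP10K in set 0 (9 of 45 members) and 0.514 in set 1 (6 of 14). S phase sums were also higher in set 1, at medians of 20.6 CP10K in set 0 and 28.9 in set 1, and the 20 members with the lowest sums held 19 cells of set 0 and 1 of set 1. Several of the genes furthest apart between the sets, Rpl10a-ps1, Gm45713, Rps16-ps2 and Gm29216, are pseudogenes or gene models without a name, whose reads may be shared with near-identical copies. Fabp6, the ileal fatty acid binding protein, averaged 2.28 CP10K in set 0 and 0.0674 in set 1, but 72.3% of its summed level came from 1 cell at 74.8 CP10K, which also held Cdkn1c at 24.6.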

How the data were processed

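Cells were prepared with 10x Genomics 3' chemistry, per the labels' protocols. Tools listed by the submitters' processing notes are alevin, Salmon 0.14.1 and Scanpy 1.6.0, with the builds GRCm38 and mm10. The deposited table, 11871 cells by 25663 genes, holds a linear signal that the authors scaled to sum to 10000 in every cell. The sources used here name no cell filter. The highest mitochondrial share in any deposited row was 14.99%, and whether cells above that were removed is not stated. Set 1 rows whose 16-base barcode set 0 also held (818) were dropped. UMIs were recovered from the most frequent non-zero value of each cell, taken as 1 UMI: a median of 94.9% of values were whole multiples within 0.01, the rest being fractional estimates, so summed UMIs were rounded.

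Levels are means over cells. Log2 ratios used a pseudocount of 0.01, which understates changes of low genes, for genes with at least 0.2 in either group, and 2-fold was the line for a call. Intervals are exact Poisson or Clopper-Pearson at 95%. A count of 0 was given a limit of 3 counts. Thinning used 8000 UMIs per cell. UMI recovery and calls were checked on simulated data. Members, the 40 gene lists and comparisons were chosen with earlier results of these data known. Named genes were those of the rule, the 15 highest and 15 lowest with at least 1 CP10K, up to 4 per list, all of the stem cell, Wnt, Notch and methylation lists, the 5 highest and lowest against each neighbouring group and the 8 highest and lowest between sets. Others named, the histone set, the S phase minimum of 15 and the TATAA motif were chosen after values were seen. No doublet caller was run. Some genes that the rule names are not reported here. Python 3.11.15, numpy 2.4.6, scipy 1.17.1 and pandas 2.3.3 were used.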

Additional observations from a re-analysis of the deposited data

Results flagged for a closer look

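Olfm4 also appeared in data that the comparisons do not use. The 818 rows of set 1 whose barcode set 0 also holds had 226 Olfm4 UMIs, and 3 of them met the rule for members (0.367%). Members were 0.273% of the kept cells of set 1 and 0.534% of all kept cells. The set 0 partners of 2 of these 3 rows were members. Mean Olfm4 was 0.179 CP10K in the dropped rows and 0.149 in all kept cells. Whether these rows are cells of their own was not tested.

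The hormone gene Cck lay on opposite sides of a ratio of 1 in the 2 sets. Its log2 ratio of members over other kept cells was 3.64 in set 0 and -4.81 in set 1, where no member held a transcript. The value in set 0 rests on 1 of 45 members, and the difference was not tested.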

How the results depend on the processing

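No paired analysis was possible because each label has 1 replicate, no barcode set is tied to a label, and no result comes from a test. For the same reason no replicate was left out. The cause of the changes below was not tested, except that a lower minimum tests more genes and another fold line moves the line itself.

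The member share of 0.534% became 0.778% with an Olfm4 minimum of 1 and 0.308% with 4, 0.281% with a limit of 1 on the mitotic sum and 0.823% with 4, 0.758% in set 0 alone and 0.273% in set 1 alone. It stayed inside its interval with Fabp1 below 30, a goblet limit of 5, shared barcodes kept or at most 10% mitochondrial signal.

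Counts of 2-fold genes are given as higher and lower. Against all other cells (916 and 1144) they were 301 and 375 with a minimum level of 1, 1577 and 1781 with 0.05, 1660 and 1724 at 1.5-fold and 169 and 450 at 4-fold, and 1435 genes were higher with totals without mitochondrial, ribosomal protein and haemoglobin genes (reduced totals). Against low-Olfm4 cells (642 and 1109) they were 178 and 345, 1196 and 1823, 1335 and 1749, and 148 and 380 under those 4 settings, with 1016 higher on the reduced totals. Against cycling cells (39 and 175) they were 9 and 37, 271 and 481, 164 and 404, and 17 and 78, with 73 higher on the reduced totals. With an S phase sum of 15 or more (70 and 158) they were 10 and 20, 335 and 678, 282 and 532, and 6 and 17, with 131 higher on the reduced totals. Between the members with the highest and lowest S phase sums (505 and 510) they were 49 and 38, 1574 and 1665, 1056 and 1063, and 123 and 118, and 803 and 786 on the reduced totals.

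The smaller comparisons moved under more settings. A pseudocount of 0.1 gave 25 higher genes against cycling cells, 22 and 68 with an S phase sum of 15 or more and 259 and 275 between the S phase ends. Set 1 alone, with 14 members, gave 387 and 437, 325 and 534, and 1371 and 1415 in these 3 comparisons, and set 0 alone gave 113 higher with an S phase sum of 15 or more. An Olfm4 minimum of 4 gave 73 higher against cycling cells, 106 and 248 with an S phase sum of 15 or more and 845 higher between the S phase ends. Counts under summed UMIs, without the 5% of cells with most UMIs, with shared barcodes kept and without the Cck-led and Fabp6-led members, an alternative chosen after seeing the data, were all within 1.5 times. The values within each set at an S phase sum of 15 or more, and those without the member of highest enterocyte sum, were also added after seeing the data.

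Thinning to 4000 UMIs gave shares of 40.7% for Slc12a2, 5.09% for Lgr5 and 18.6% for Smoc2, and no thinning 83.1%, 35.6% for Ascl2 and 47.5% for Smoc2. Of 3193 log2 ratios of 246 named genes under alternatives, 2936 moved by less than 1.5-fold and 254 by more. The other minimum levels and fold lines cannot change a ratio. Their values are among the 2936 by construction, so that count overstates stability. Sign changes were counted apart only for genes at the minimum level whose main ratio was at least 2-fold, and other sign changes by size alone. The 3 counted apart were all Cck, at -4.81 in set 1 alone, -4.46 with an Olfm4 minimum of 4 and -4.41 without the 2 members. Depth limits the rarest markers: the 21 UMIs of Lgr5 in members leave an interval of 0.112 to 0.278 per 10000.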

Other observations

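Transcripts tied to sex were shared out unevenly among the Olfm4-high cells of set 1. Xist, which is transcribed from the inactive X chromosome, was seen in 1 of 14 members of set 1 (7.14%, exact 95% interval 0.181 to 33.9) and in 5 of 26 cycling Olfm4-high cells (19.2%, 6.56 to 39.4), against 50.1% (47.4 to 52.8) of the low-Olfm4 cells of that set. At least 1 of 4 Y-linked genes (Ddx3y, Eif2s3y, Kdm5d and Uty) was seen in 11 of these 14 members, 16 of the 26 cycling cells and 47.9% of the low-Olfm4 cells. In set 0, Xist was seen in 21 of 45 members (46.7%, 31.7 to 62.1), 42.7% of cycling Olfm4-high cells and 41.9% of low-Olfm4 cells, and Y-linked genes in 21 of 45 members. Each library pooled 2 embryos, whose sex the labels do not give. These counts were made after other values had been seen, and embryo, sex and set cannot be told apart.

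Depth beside these counts was close in members, with medians of 16985 UMIs in set 1 and 17339 in set 0. A cell from set 1 with the highest S phase sum, 49.6 CP10K, was also the member with the highest histone sum, 73.4 CP10K.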
